A study of Macaca fascicularis with 2 samples.

Results

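Fibrillar collagens are worked on by a set of enzymes and 1 dedicated chaperone, inside the cell and in the matrix, and the genes of that set were described here in single cells of cynomolgus monkey (*Macaca fascicularis*) articular cartilage (AC) and nucleus pulposus (NP). A list of 10 genes was taken by symbol: the prolyl 4-hydroxylase genes *P4HA1*, *P4HA2*, *P4HA3* and *P4HB*, the lysyl hydroxylase genes *PLOD1*, *PLOD2* and *PLOD3*, the lysyl oxidase genes *LOX* and *LOXL2*, and the chaperone gene *SERPINH1*. Of these, 7 had a row among the 21371 genes of the count matrix and all 7 held reads. *P4HA2*, *P4HA3* and *P4HB* had no row and were not analysed here, so prolyl 4-hydroxylase is represented by the catalytic subunit *P4HA1* alone.

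The cells came from wild-type male monkeys aged 3 years. AC of the femoral condyle and NP of a lumbar disc were digested, the cells were marked with antibody tags A951 to A954 through biotinylated surface proteins, and all cells were pooled for 1 TAS-seq library, a method that captures the polyA RNA of single cells on barcoded beads. The labels name 3 tissue samples in the pool (NP and AC from 1 monkey, AC only from the other), whereas a quality plot of the study shows 4 tagged samples. No source read here pairs a tag with a tissue, so the tags are compared by name and AC is not compared with NP.

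Of 5723 cells, 5674 carried 1 tag and 5653 were kept after limits on genes detected and mitochondrial reads. Notochordal cells, the NP cells that descend from the embryonic notochord, were taken as those with 5 or more reads of *KRT19*, a keratin, and 5 or more of *TBXT*, the notochord transcription factor brachyury. There were 310 of them, 5.48% of the kept cells (exact 95% interval 4.90 to 6.11%), and the remaining 5343 are called other cells. By tag the notochordal cells numbered 67 in A951, 236 in A952, 5 in A953 and 2 in A954, and the other cells 928, 889, 1372 and 2154. Ratios for A953 and A954 therefore rest on very few notochordal cells. The pooled depth was 66069761 reads in notochordal cells and 1275235761 in other cells, with medians of 186370 and 199072 reads and of 4061 and 3819 genes per cell. No cell name occurred more than once.

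Levels are the pooled reads of a cell group scaled to a total of 1000000 (rpm). Reads were counted without molecular identifiers, so PCR copies count as reads. Intervals of levels cover the counting of reads only, with each read taken as independent. Intervals of shares treat cells as independent draws. Neither kind covers differences between monkeys or samples. The library is 1 sample and its cells are not replicates of a condition, so differences are given as sizes with their values in each tag and no p-value is given. The reads were not divided by gene length, and the members are not ranked against each other by level.

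The names of the cell groups were checked against markers. The 7 notochordal markers, which include the 2 genes that define the group, summed to 14346 rpm in notochordal cells and 184 rpm in other cells, with *APOE* the most abundant in both, at 10894 and 142 rpm. The 2 defining genes differ by the choice of cells, and *APOE* makes up most of both sums. The sums therefore do not speak for each marker. The 7 chondrocyte markers with a row summed to 17631 rpm in notochordal cells, led by the proteoglycan gene *ACAN*, and to 32372 rpm in other cells, led by *COL2A1*. Markers of further cell types were low, with sums in notochordal and other cells of 22.3 and 47.4 rpm for immune, 3.47 and 2.81 rpm for endothelial and 11.9 and 53.2 rpm for osteoblast markers. Mural markers summed to 80.1 rpm in notochordal cells against 11.7 rpm in other cells, mostly from *ACTA2*, the smooth muscle actin gene, at 70.7 rpm. The mural sum was higher in notochordal cells in A952, at 101 against 11.3 rpm, and in the 2 cells of A954, at 98.9 against 12.5 rpm, and lower in A951, at 5.82 against 13.5 rpm, and in the 5 cells of A953, at 2.65 against 9.52 rpm. Markers of cycling cells summed to 54.2 and 24.7 rpm, with 683 rpm in the notochordal cells of A953, tendon and annulus markers to 1.54 and 2.54 rpm, and the 1 red cell marker with a row to 0.0151 and 0.0455 rpm. The part of these cells in the results was not tested.

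Collagen chains are modified in the endoplasmic reticulum while they are still unfolded. Prolyl 4-hydroxylase makes the hydroxyproline that keeps the triple helix stable, the lysyl hydroxylases make the hydroxylysine on which sugars and the later crosslinks are built, and HSP47, the product of *SERPINH1*, binds the newly formed helix and accompanies it towards the Golgi. Outside the cell the copper enzymes of the lysyl oxidase family turn lysine and hydroxylysine side chains into aldehydes that crosslink neighbouring collagen molecules, which gives cartilage fibrils their tensile strength. *COL2A1* encodes the chain of type II collagen, the main fibrillar collagen of cartilage and NP, and *COL1A1* encodes a chain of type I collagen, the collagen of bone, tendon and fibrous tissue.

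The notochordal cells held less RNA of most of these genes than the other cells did, as a share of all reads. The largest gap between pooled levels was in the crosslinking enzyme *LOX*, at 10.7 against 60.0 rpm, and 5 more members, *P4HA1*, *PLOD1*, *PLOD2*, *LOXL2* and *SERPINH1*, were between 1.65-fold and 2.04-fold lower. *PLOD3* was the exception, at 69.4 against 54.3 rpm. Both collagens lay much further apart, at 1269 against 20072 rpm for *COL2A1* and 10.8 against 579 rpm for *COL1A1*. The gap in *COL1A1* was carried by few cells, as its median single-cell level was 6.27 rpm in notochordal and 8.86 rpm in other cells. Among 9962 genes with reads in 10% or more of either cell group, 11.4% were at least 2-fold lower in notochordal cells and 24.4% at least 2-fold higher, whereas 2 of the 7 members (*PLOD1* and *LOX*) were at least 2-fold lower and 0 at least 2-fold higher. At 1.5-fold, 17.9% of the genes and 6 of the members were lower. The median log2 ratio was −0.78 over the members and 0.30 over all genes tested, with a middle range of −0.32 to 0.98 for the latter. Set against that shift of 0.30, 6 members and 15.7% of all genes were at least 2-fold lower and *PLOD3* was at 0.05, a centring chosen after the values were seen.

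*P4HA1*, the prolyl 4-hydroxylase subunit, was at 449, 446, 465 and 397 rpm in the other cells of A951, A952, A953 and A954. In notochordal cells the same tags gave 388, 224, 354.5 and 11.4 rpm, the last from 3 reads in 2 cells. All 4 notochordal levels lay below all 4 levels of other cells, but in A951 the gap was small. The log2 ratio over all tags was −0.74, and within A951 and A952, the tags with most notochordal cells, it was −0.21 and −0.99. Without A952 it was −0.18, so the pooled difference of *P4HA1* rests largely on that tag. A read of *P4HA1* was found in 86.8% of notochordal cells (82.5 to 90.3%) and 93.1% of other cells (92.4 to 93.8%), and the median cell with a read held 33 against 77 reads.

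**Figure D1:**
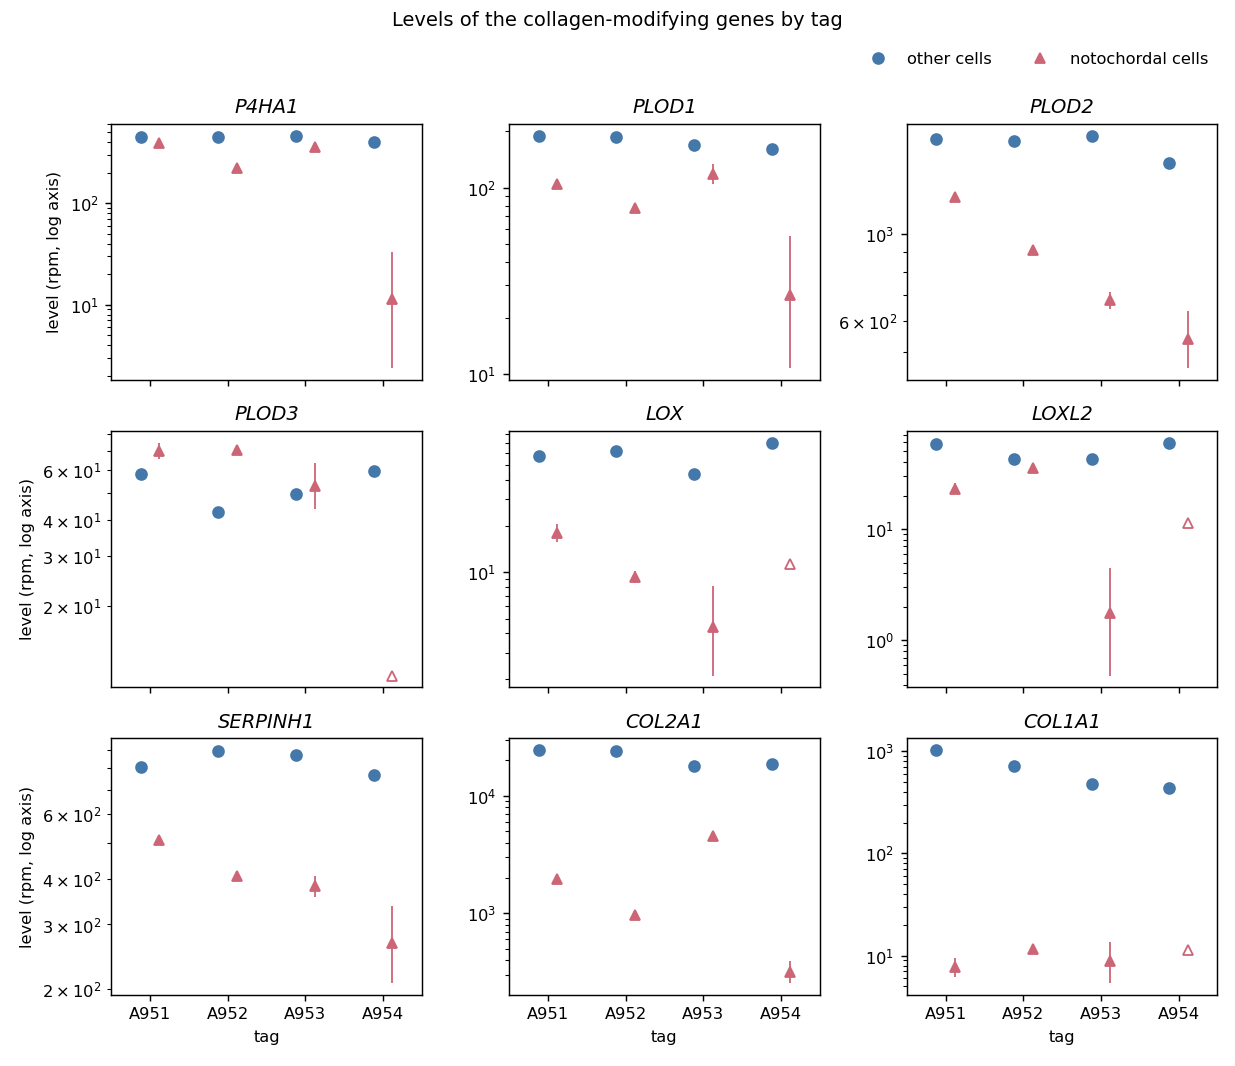
Pooled level of each gene (rpm, log axis, a separate range for each gene) in the 4 tags, with circles for other cells and triangles for notochordal cells and bars for the exact 95% Poisson interval, which covers counting error only. Open triangles mark levels from fewer than 3 reads, drawn at the level of 3 reads. For all genes but *PLOD3* every triangle drawn from 3 or more reads lies below every circle.

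*PLOD2* makes the hydroxylysine of the collagen ends, or telopeptides, that leads to mature crosslinks. Its level was 1737, 1719, 1773 and 1514 rpm in the other cells of A951 to A954 and 1242, 908, 677 and 540.0 rpm in the notochordal cells. The groups did not overlap, and the log2 ratio was −0.78 over all tags, −0.48 in A951 and −0.92 in A952. Nearly every cell of both groups held reads of *PLOD2*, with 98.7% of notochordal and 99.6% of other cells, and the median single-cell level was 653 against 1403 rpm.

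*PLOD1*, which hydroxylates lysines of the helical part, followed the same order at lower read numbers. Other cells had 189, 187, 168 and 162 rpm in A951 to A954, and notochordal cells 104, 77.6, 119 and 26.6 rpm. The levels did not overlap, and the log2 ratio of −1.03 sat at the edge of a 2-fold difference. In single tags it was −0.86 in A951 and −1.27 in A952, and without A952 it was −0.68. Reads of *PLOD1* were found in 50.3% of notochordal cells (44.6 to 56.0%) and 66.9% of other cells (65.6 to 68.2%).

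*PLOD3*, which also carries the activities that add galactose and glucose to hydroxylysine, differed from its relatives. It was at 58.0, 42.7, 49.6 and 59.5 rpm in other cells, and at 70.0, 70.3 and 52.9 rpm in the notochordal cells of A951, A952 and A953, with 0 reads in the 2 cells of A954, where 3 reads would have been 11.4 rpm. In A951 and A952 both notochordal levels were above both levels of the other cells, by log2 ratios of 0.27 and 0.72, a pattern that 44.4% of all genes tested shared. In A953 the ratio was 0.09, and over all tags it was 0.35, close to the 0.30 of the median gene. Detection also went the opposite way to the other members, with 44.2% of notochordal cells (38.6 to 49.9%) and 37.4% of other cells (36.1 to 38.7%). Taking the *PLOD* reads together, *PLOD3* made up 6.23% of them in notochordal cells and 2.90% in other cells, 4.94 against 2.92% in A951 and 6.66 against 2.19% in A952. These shares compare the cell groups and not the genes.

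*LOX* and *LOXL2* act outside the cell. *LOX* was at 57.7, 62.2, 43.8 and 69.6 rpm in the other cells of A951 to A954, and at 18.0, 9.33, 4.41 and 3.80 rpm in the notochordal cells, where A953 held 10 reads and A954 1 read. The 4 notochordal levels were all under the lowest tag of the other cells. The log2 ratio of *LOX* was −2.48 over all tags, a 5.58-fold difference, with −1.68 in A951 and −2.74 in A952. Of the genes tested, 3.63% had a lower ratio.

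The reads of *LOX* were unevenly spread over cells. In notochordal cells 20.3% (16.0 to 25.2%) had a read, the median cell with a read had just 1, and the 10% of cells with most reads held 95.5% of all 710 reads. In other cells 39.4% (38.1 to 40.7%) had a read, the median being 7 reads, and the top 10% held 82.7%. Cells with 5 or more reads made up 2.90% of notochordal and 21.6% of other cells. *KRT19*, a gene of the notochordal cells, had a read in 10.6% of the other cells, again with a median of 1, and 0.992% of those cells had 5 or more. The choice of cells itself limits these counts, so they give no measure of what single reads of *LOX* mean. No expression is read from single reads of *LOX* in notochordal cells, and the pooled level there rests on few cells.

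*LOXL2*, a second enzyme of the family that also acts on basement membrane collagen, was at 58.6, 43.0, 42.6 and 59.1 rpm in other cells and at 23.1, 35.3, 1.76 and 7.61 rpm in notochordal cells, the last 2 from 4 and 2 reads. The levels did not overlap, though A952 came near. The log2 ratio was −0.72 over all tags, −1.34 in A951 and −0.28 in A952, so the 2 tags with most notochordal cells differed in size for this gene. Without A952 it was −1.47, past a 2-fold difference. The top 10% of notochordal cells held 96.6% of the reads, and 29.4% (24.3 to 34.8%) of notochordal and 40.9% (39.6 to 42.2%) of other cells had a read.

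*SERPINH1*, the collagen chaperone, was at 805, 893, 869.6 and 767 rpm in the other cells of A951 to A954 and at 511, 407, 381 and 266 rpm in the notochordal cells. The levels were well apart in every tag. The log2 ratio was −0.95 over all tags, −0.65 in A951, −1.13 in A952 and −1.19 in A953. Almost all cells had a read, 92.9% of notochordal and 97.3% of other cells, but the median cell with a read had 17 against 130 reads. The median single-cell level was 65.2 against 611 rpm, a wider gap than between the pooled levels. The top 10% of notochordal cells held 62.8% of their *SERPINH1* reads, against 36.7% in other cells.

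**Figure D2:**
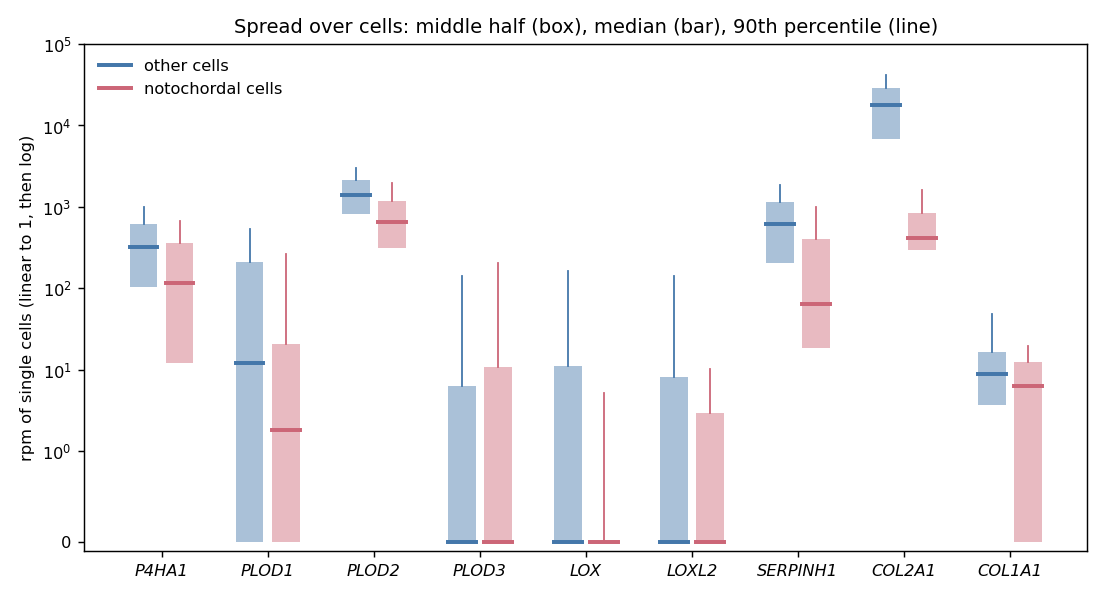
Single-cell levels (rpm, linear up to 1 and log above) of the 7 members and the 2 collagens in other and notochordal cells, with boxes for the middle 50% of cells, bars for the median and lines up to the 90th percentile. The medians of *SERPINH1* (611 and 65.2 rpm) and *COL2A1* (17841 and 415 rpm) lie far apart, whereas those of *PLOD3*, *LOX* and *LOXL2* are at 0 in both groups.

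Across the 4 tags, the levels of 6 members (*P4HA1*, *PLOD1*, *PLOD2*, *LOX*, *LOXL2* and *SERPINH1*) did not overlap between notochordal and other cells, all lower in notochordal cells. Of the genes tested, 12.6% had that pattern over the 4 tags, and 25.8% had it over A951 and A952 alone, where the same 6 members were lower. The median cell held reads of 4 of the 7 members among notochordal cells and of 5 among other cells. All 7 were found in 11 notochordal cells (3.55%, 1.78 to 6.26%) and in 483 other cells (9.04%, 8.28 to 9.84%). A single read was enough for these counts, and among notochordal cells with a read of *LOX* the median was 1 read, as it was for *LOXL2*, so no joint expression is read from them. When every cell was thinned to 50000 reads, which left out 11 notochordal and 196 other cells with fewer, the share of cells with a read was 74.9 and 90.3% for *P4HA1*, 32.8 and 54.0% for *PLOD1*, 28.1 and 24.1% for *PLOD3*, 8.03 and 27.1% for *LOX*, 15.4 and 24.9% for *LOXL2* and 83.6 and 94.9% for *SERPINH1*, in notochordal and other cells. The order of the 2 groups was as before thinning for each of these genes.

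The definition of the notochordal cells bore on the size of these ratios. With 1 or more reads of both marker genes 408 cells qualified, the *LOX* ratio shrank to −0.34 and that of *PLOD1* to −0.36, and no member was 2-fold lower, *SERPINH1* being furthest from 0 at −0.50. With 20 or more reads of both, 270 cells qualified and the ratios were −2.37 and −0.90. With means of log2(rpm + 1) over cells in place of pooled reads, *SERPINH1* (−2.29), *PLOD1* (−1.55) and *P4HA1* (−1.54) were further apart than *LOX* (−1.37).

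The pooled levels of both collagens differed more between the groups than those of the enzymes that modify them. *COL2A1* was at 24502, 23899, 17976 and 18512 rpm in the other cells of A951 to A954 and at 1970.0, 962, 4563 and 319 rpm in notochordal cells, and all cells of both groups held reads of it. *COL1A1* was at 1018, 716, 481 and 438 rpm against 7.70, 11.7, 8.82 and 3.80 rpm. The pooled levels were apart in every tag for both genes. For *COL1A1*, the 4853 other cells under 100 rpm were at 9.78 rpm together. The 10.8 rpm of notochordal cells includes 3 cells at or above that limit, so these values come from unlike groups and are not compared. For each 1000 reads of *COL2A1* the notochordal cells held 335 reads of *SERPINH1*, 757 of *PLOD2*, 203 of *P4HA1*, 66.0 of *PLOD1* and 54.7 of *PLOD3*, and the other cells 40.7, 82.0, 21.4, 8.52 and 2.71. *LOX* was closest between the groups on this scale, with 8.47 and 2.99 reads, and *LOXL2* had 25.1 and 2.61. In A953 the order of both was the reverse, with 0.966 against 2.44 for *LOX* and 0.387 against 2.37 for *LOXL2*, from 10 and 4 notochordal reads. Only 1.20% of the genes tested had a lower ratio between notochordal and other cells than *COL2A1*. Nearly any gene is thus higher in the pooled notochordal cells on this scale, and the members are not set apart by it. The 21 collagen chains with a row took 0.658% of the reads of notochordal cells and 4.34% of those of other cells, and with these reads left out of the totals the same 2 members were 2-fold lower.

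Other cells with little *COL2A1* RNA offer a second view of the same levels. In the 1336 other cells with the lowest share of *COL2A1* reads, pooled at 2981 rpm of *COL2A1*, *SERPINH1* was at 564 rpm, *PLOD2* at 1195, *P4HA1* at 366, *PLOD1* at 111, *LOX* at 26.1, *LOXL2* at 22.3 and *PLOD3* at 47.5 rpm. The notochordal cells held still less *COL2A1*, pooled at 1269 rpm, so the groups are not matched for it. Set against the member levels in these 1336 cells, notochordal cells were below for *SERPINH1*, *PLOD2*, *P4HA1*, *PLOD1* and *LOX*. They were above for *LOXL2* (31.8 rpm) and *PLOD3* (69.4 rpm). For *LOXL2* this held in A952 alone, at 35.3 against 19.6 rpm, while in A951 notochordal cells were at 23.1 against 31.3 rpm and those of A953 and A954 were also below. For *PLOD3* it held in A951, A952 and A953, and the 2 notochordal cells of A954 had no read of it. The 5 members below were so in each tag, except *PLOD1* in A953, at 119 against 93.1 rpm. The share of all genes that were lower than in these other cells was not counted, so the members are not set apart from other genes here.

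Further genes of collagen biosynthesis were taken as a list. Of 28 listed partners, which include prolyl 3-hydroxylases, propeptide proteases and their enhancers, transport factors and further lysyl oxidases, 24 were tested. Of these 10 were at least 2-fold lower and 4 at least 2-fold higher in notochordal cells, against 11.4 and 24.4% of all genes, with a median log2 ratio of −0.64 against 0.30 for all genes. The furthest below were *PCOLCE2* and *PCOLCE*, which enhance the removal of the procollagen C-propeptide, at −4.73 and −3.30, and *ADAMTS3*, a protease that removes the N-propeptide of type II procollagen, at −3.71. The furthest above were *P3H4*, a partner of lysyl and prolyl hydroxylases, at 1.45, *MIA2*, a factor in the export of large cargo from the endoplasmic reticulum, at 1.42, and *ADAMTS2*, another N-propeptide protease, at 1.28.

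The collagen chains themselves were lower as a group, with 14 of 20 tested chains at least 2-fold lower, 2 at least 2-fold higher and a median of −2.59. Of all genes tested, 11.4% were at least 2-fold lower and 24.4% at least 2-fold higher. *COL1A1* (−5.74), *COL9A1* (−4.46), a chain of the type IX collagen on cartilage fibrils, and *COL16A1* (−4.32) were the furthest below, and *COL5A2* (2.00) and *COL6A3* (1.05), chains of type V and type VI collagen, were the furthest above. *COL1A2*, the partner chain of *COL1A1* in type I collagen, was at 852 rpm in notochordal and 884 rpm in other cells, a log2 ratio of −0.05, and is named after its value was seen. The median single-cell level was 305 rpm in notochordal and 27.1 rpm in other cells, where 91.6% of the *COL1A2* reads lay in the top 10% of cells.

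Genes of protein folding and of hypoxia served as further lists, since collagen hydroxylation takes place in the endoplasmic reticulum and several members are known targets of hypoxia-inducible factors. Of 15 tested folding genes, 2 were at least 2-fold lower (*HYOU1*, a chaperone, at −2.15 and *MANF*, a stress-responsive secreted protein, at −1.04) and 0 higher, with a median of −0.35, where 11.4% of all genes were lower. The chaperone *HSP90B1* was at −0.73, and *ERP29* (0.84), the oxidase *ERO1A* (0.79) and calreticulin, *CALR* (0.74), were above 0. Of 16 tested hypoxia genes, 4 were at least 2-fold higher and 1 lower, with a median of 0.66. Over all genes tested 24.4% were higher, so the 4 are close to that share. *ADM*, encoding the peptide adrenomedullin, stood at 4.11, the carbonic anhydrase gene *CA12* at 3.29 and the histone demethylase gene *KDM3A* at 1.65, whereas *CA9* was at −1.02, *NDRG1* at −0.79 and *HIF1A* at −0.63. The 5 measured members that are known hypoxia targets (*P4HA1*, *PLOD1*, *PLOD2*, *LOX* and *LOXL2*) all had ratios below 0, between −2.48 and −0.72. *SERPINH1*, which is not among these 5, was also below 0, at −0.95. The share of all genes below 0 was not counted, and a part of hypoxia was not tested.

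**Figure D3:**
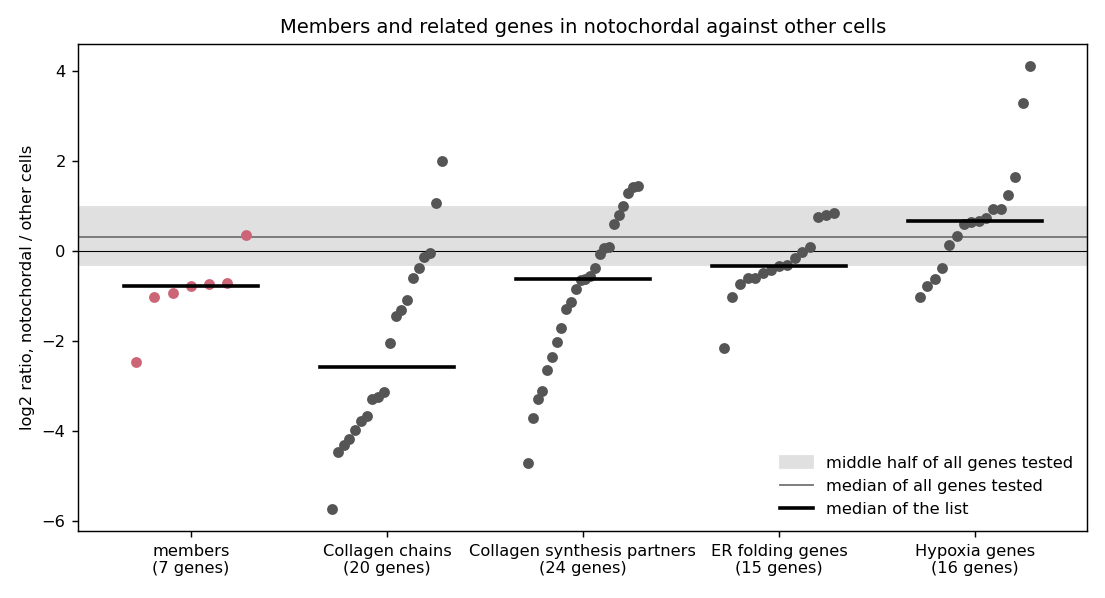
Log2 ratio of pooled levels in notochordal against other cells for the 7 members and the tested genes of 4 lists, each point 1 gene in order of its ratio, with thick bars for the list median, a thin line at the median of all 9962 genes tested (0.30) and a grey band from −0.32 to 0.98 for their middle 50%. The medians of the members (−0.78), the collagen chains (−2.59), the partners (−0.64) and the folding genes (−0.35) lie below the band, and that of the hypoxia genes (0.66) lies within it.

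Within the other cells the 4 tags gave similar levels of the members. The highest tag was 1.16 to 1.17 times the lowest for *P4HA1*, *PLOD1*, *PLOD2* and *SERPINH1*, 1.39 times for *PLOD3* and *LOXL2* and 1.59 times for *LOX*. The median gene of 9305 tested had a ratio of 1.34, and 9.11% of them reached 2, which 0 members did. At 1.5 times, which 30.5% of genes reached, *LOX* alone among the members passed, with A954 highest and A953 lowest. A954 was the lowest tag for *P4HA1*, *PLOD1*, *PLOD2* and *SERPINH1* and the highest for *PLOD3*, *LOX* and *LOXL2*, and it was also the tag with the most reads per other cell, a median of 222696 against 175762 to 197492. The part of depth in this was not tested. The spread of the collagens over tags was 1.36 times for *COL2A1* and 2.32 times for *COL1A1*.

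The question of whether the members follow the collagens from cell to cell was examined over the 5343 other cells with Spearman's rho. Cells of 1 library share its depth and its free RNA, and all values are parts of the same total, so rho is given as a description. To *COL2A1* it was 0.292 for *PLOD2*, 0.277 for *SERPINH1*, 0.203 for both *PLOD1* and *LOX*, 0.175 for *LOXL2*, 0.145 for *P4HA1* and 0.045 for *PLOD3*. Of 6026 genes detected in at least 25% of these cells, 1.59% reached 0.2 and the median was 0.005, whereas 4 of the 7 members reached it. *PLOD1* and *LOX* were at the edge of that value, and given the number of genes detected per cell they fell to 0.199 each, which left *PLOD2* and *SERPINH1*.

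*PLOD2* and *SERPINH1* had the highest values in each tag, with *PLOD2* above *SERPINH1* in A951, A952 and A954 and below it in A953. *PLOD2* had a rho to *COL2A1* of 0.254, 0.303, 0.344 and 0.273 in A951 to A954, and *SERPINH1* of 0.231, 0.283, 0.376 and 0.233. *LOX* lay between 0.185 and 0.220, *PLOD1* between 0.160 and 0.228 and *PLOD3* between 0.008 and 0.114. A953 gave the highest value for *PLOD2*, *SERPINH1*, *PLOD1*, *LOXL2* and *P4HA1*, and without it 2 members reached 0.2. In the 310 notochordal cells rho to *COL2A1* was 0.272 for *PLOD2*, 0.232 for *PLOD1* and 0.217 for *SERPINH1*, with the other 4 between 0.046 and 0.147. Given the number of genes detected, these became 0.230, 0.147 and 0.153, so *PLOD2* alone stayed above 0.2 in the pooled cells. The 2 tags with most notochordal cells differed in this. In the 236 cells of A952 *PLOD2* alone passed 0.2, at 0.249. In the 67 cells of A951 *PLOD2* was at 0.166 and *LOXL2* at 0.162. There *SERPINH1* (0.303), *PLOD3* (0.292), *PLOD1* (0.2396), *P4HA1* (0.217) and *LOX* (0.204) passed 0.2, so *PLOD2* is not set apart in both tags.

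To *COL1A1* the values were smaller. The correlation lay between 0.021 for *LOX* and 0.077 for *PLOD1* in the other cells, against a median of 0.027 over all genes. In notochordal cells it lay between −0.043 for *LOX* and 0.119 for *PLOD3*. In the other cells 0 members reached 0.2, but only 0.0166% of all genes did, so that count does not set the members apart. By rank, *PLOD1* lay above 99.5% of genes and *SERPINH1* above 91.0%, and *LOX*, the lowest member, above 37.7%. At such sizes in sparse counts these values are not read as relations.

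**Figure D4:**
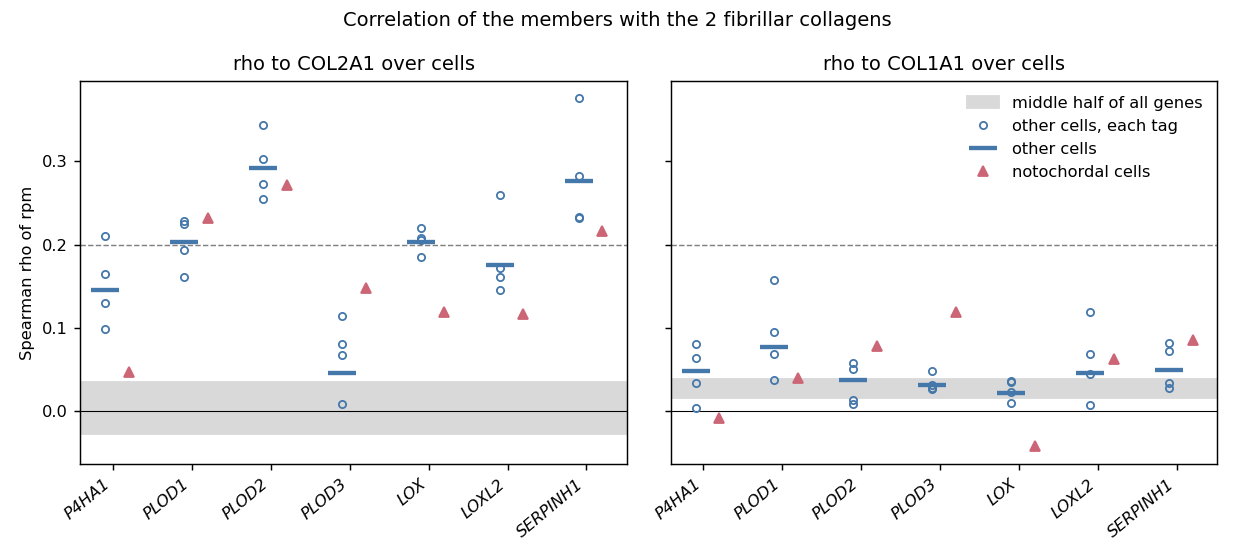
Spearman rho over cells between each member and *COL2A1* (left) or *COL1A1* (right), with bars for all 5343 other cells, open circles for the other cells of each tag, triangles for the 310 notochordal cells, a grey band for the middle 50% of all genes and a dashed line at 0.2. To *COL2A1* the bars of *PLOD2* (0.292) and *SERPINH1* (0.277) are the highest, and to *COL1A1* all bars lie under 0.1.

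The sizes behind these correlations show in groups of cells. When the other cells were ordered by their share of *COL2A1* reads and cut into 4 groups of equal number, the pooled *LOX* level went from 26.1 rpm in the lowest group through 49.7 and 66.7 to 96.1 rpm in the highest, and *LOXL2* from 22.3 through 50.4 and 52.6 to 83.2 rpm. These were the steepest steps among the members, 3.69-fold and 3.72-fold from bottom to top, while *COL2A1* itself spanned 13.7-fold. *PLOD1* went from 111 to 239.6 rpm (2.16-fold), *SERPINH1* from 564 to 976 rpm (1.73-fold), *PLOD2* from 1195 to 2034 rpm (1.70-fold) and *P4HA1* from 366 to 485 rpm (1.33-fold), each rising at every step. *PLOD3* had no such order, with 47.5, 50.8, 63.9 and 54.4 rpm.

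The 4 groups had nearly the same depth, with medians of 184021 reads in the lowest and 206001 in the highest, and 3660 and 3868 genes. Repeated within each tag, the top group was 2.36, 4.26, 4.12 and 3.60 times the bottom for *LOX* in A951 to A954, and 2.72, 3.60, 7.28 and 2.61 times for *LOXL2*. The same ratio was 1.73 to 2.55 for *PLOD1*, 1.51 to 2.43 for *SERPINH1*, 1.56 to 1.82 for *PLOD2* and 1.20 to 1.61 for *P4HA1*. All 6 genes were thus higher at the top in each of the 4 tags, as was *PLOD3* by 1.11 to 1.65 times. Of 6026 genes, 14.1% were higher at the top in each tag.

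**Figure D5:**
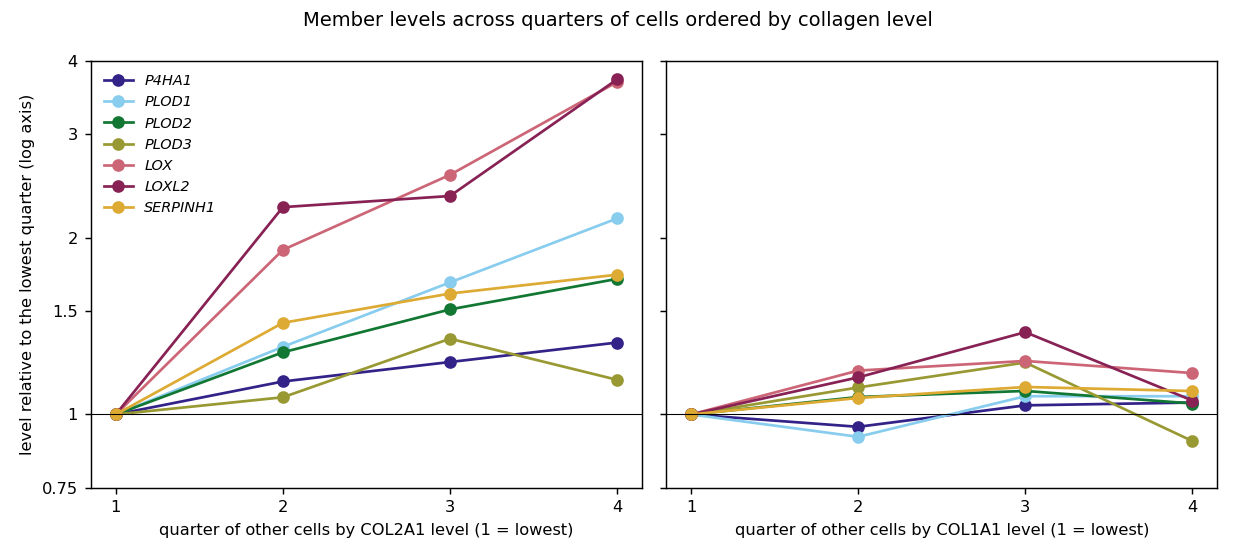
Pooled level of each member relative to the lowest group (log axis) in 4 equal groups of other cells ordered by their *COL2A1* level (left) or *COL1A1* level (right). On the left *LOX* and *LOXL2* reach 3.69 and 3.72 times their lowest group, and on the right no member ends above 1.18 times.

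Ordered by *COL1A1* instead, the highest group differed from the lowest by 0.90 times for *PLOD3* to 1.18 times for *LOX*, with no member rising at every step. The depth of these groups differed, with a median of 137772 reads in the lowest and 241966 in the second, and *COL1A1* was at 0 or at a few reads in most cells. Of its reads in other cells, 98.6% lay in the top 10% of the cells. Cells with 100 rpm or more of *COL1A1*, a limit chosen after the values were seen, numbered 490 (9.17% of other cells, with 88, 84, 157 and 161 in A951 to A954), held 98.5% of the *COL1A1* reads and had 6366 rpm of it. Between 50 and 200 rpm there were 70 cells. These cells were also high in *COL1A2*, at 7552 against 227 rpm, and lower in *COL2A1*, at 13357 against 20733 rpm, in each of the 4 tags.

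Between those *COL1A1*-high cells and the rest, *LOXL2* differed most among the members, by 1.54-fold. *P4HA1* was at 449.9 against 428 rpm, *SERPINH1* at 759 against 823, *PLOD2* at 1453 against 1664, *PLOD1* at 159.7 against 172 and *PLOD3* at 59.95 against 53.7 rpm. *LOX* was at 44.1 against 61.6 rpm and *LOXL2* at 35.1 against 54.2 rpm. In A951 to A954 the log2 ratio was −0.35, 0.41, −0.91 and −0.73 for *LOX*. For *LOXL2* it was 0.20, −0.27, −1.68 and −0.66, furthest from 0 in A953. *PLOD2* was lower in the *COL1A1*-high cells of all 4 tags, by log2 ratios of −0.17 to −0.31. The sign of each of the other 6 members varied by tag. The share of all genes lower in all 4 tags was not counted, so *PLOD2* is not set apart here.

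The genes whose levels over other cells were most like each member were taken by rho. Among 6027 genes, *SERPINH1* was closest to *COL2A1* (0.277), to *SPARC* (0.263), which encodes a collagen-binding matrix protein, and to *COL9A1* (0.255). *PLOD2* was closest to *SPARC* (0.301), *COL2A1* and *COL11A1* (0.268), and *PLOD1* to *COL9A1* (0.224), *SPARC* (0.216) and *COL2A1*. *LOX* was closest to *LOXL3* (0.208), a further lysyl oxidase, then to *COL2A1* and *CILP2* (0.202), and *LOXL2* to *CLEC3A* (0.224), *SPARC* (0.218) and *TSPAN2* (0.211). *P4HA1* had lower values, with *BNIP3* (0.167), a mitophagy gene, first and *SERPINH1* (0.152) and *COL11A1* (0.150) next. *PLOD3* was closest to *COL5A1* (0.161), *PTMS* (0.160) and *TGFBI* (0.158), all under 0.2. Given the number of genes detected, the first partner changed to *FMOD* (0.111) for *PLOD3*, *COL2A1* (0.199) for *LOX*, *SPARC* (0.199) for *LOXL2* and *COL11A1* (0.153) for *P4HA1*. Between members rho stayed low, the highest being 0.175 for *PLOD1* with *LOXL2* and 0.169 for *PLOD2* with *LOX*, and *PLOD2* with *SERPINH1*, the 2 members highest with *COL2A1*, gave 0.082.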

How the data were processed

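Reads of 1 pooled TAS-seq library were aligned by the authors with HISAT2 2.2.1 and assigned to genes with featureCounts 2.0.2, versions as in the submitters' processing notes. The genome build was not given in the sources used here, so no coordinates are printed. The deposited values are raw counts, whole numbers for each gene in each cell, made without molecular identifiers or normalization. Reads mapping to several genes were kept, so near-identical genes can share reads. The median depth by tag was 178260 to 222358 reads per kept cell.

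Cells with 1 tag, 200 to 9000 genes and under 5% mitochondrial reads (13 genes) were kept. The 42 cells the authors marked as doublets and 7 without a tag were left out, and doublets within a tag were not sought. Levels were pooled per 1000000 reads, and a group with fewer than 3 reads was set to 3 in ratios. Levels have exact 95% Poisson intervals and shares exact Clopper-Pearson intervals. A ratio was counted from 2-fold, a spread over tags from 2 times, and rho from 0.2. Ratios covered genes detected in 10% of cells of either side, without *KRT19* and *TBXT*, and rho those in 25% of other cells. Python 3.11.15, numpy 2.4.6, scipy 1.17.1, pandas 2.3.3 and matplotlib 3.10.9 were used, and the calculations were tested on simulated data.

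Named genes were all members, both collagens, the 3 furthest genes of each list in each direction, and the 3 genes with the highest rho to each member. The members and lists were chosen with earlier results of these data known. The alternatives were other marker limits, a fold of 1.5, a rho of 0.1, means over cells, thinning to 50000 reads and no limits on cells. Further ones were 5 reads for detection, partial and Pearson correlation, and leaving out each tag. Centring, collagens left out of the totals, tags with 20 or more notochordal cells, the groups ordered by collagen and the *COL1A1* limit were added after the data were seen. A second matrix, whose columns match no sample title, and the tag library were not used here.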

Additional observations from a re-analysis of the deposited data

Results flagged for a closer look

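The log2 ratio of *P4HA1* between notochordal and other cells was −5.12 in tag A954, against −0.21, −0.99 and −0.39 in A951, A952 and A953. It was flagged because 1 tag lay far from the other 3. The value rests on 2 notochordal cells with 3 reads (11.4 rpm, 2.35 to 33.3 rpm), and without A954 the ratio over the other tags was −0.81. Of 18 sets of 4 tag values examined, 1 was flagged. Chance flags about 1 in 20 where the 4 values are equally precise. The ratios are not, as the tags hold very unlike numbers of notochordal cells, so that rate does not apply to them.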

How the results depend on the processing

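Each of the 7 members kept the sign of its ratio between notochordal and other cells in 14 of 14 alternatives. The number of members at least 2-fold lower, 2 as reported, was 0 with 1 or more reads of both marker genes, 1 with 20 or more reads of both or with 5 or more reads of either, 4 with means of rpm over cells or after thinning, 5 with means of log2(rpm + 1), and 6 at a fold of 1.5 or centred on the median of all genes. It ranged from 2 to 3 when each tag was left out, but the members counted changed. Without A952 they were *LOX* (−1.93) and *LOXL2* (−1.47), with *PLOD1* at −0.68. *SERPINH1* joined *PLOD1* and *LOX* without A951 (−1.02) and without A954 (−1.01). The number at least 2-fold higher was 0 throughout these alternatives. For the spread over tags, 1 member passed at 1.5 times and 0 under the other alternatives. For rho of 0.2 or more to *COL2A1*, 4 members as reported became 2 given the number of genes detected and 3 after thinning. Leaving out each tag gave 2 to 4, the 2 being without A953. With a limit of 0.1 in place of 0.2 there were 6. For *COL1A1* the number was 0 in each alternative. The causes of these changes were not tested. Depth limits the shares of cells with a read: at 50000 reads per cell the share of notochordal cells fell from 50.3 to 32.8% for *PLOD1*, 44.2 to 28.1% for *PLOD3*, 29.4 to 15.4% for *LOXL2* and 20.3 to 8.03% for *LOX*. Tags A953 and A954 hold 5 and 2 notochordal cells.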
